A study of Mus musculus with 12 samples.

Results

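The chromatin of 10 genes of platelet-derived growth factor (PDGF) and fibroblast growth factor (FGF) signalling was examined in mouse embryonic fibroblasts on day 2 of induced overexpression of 4in1 with GFP or with Prox1. The genes were the receptor genes Pdgfra, Pdgfrb, Fgfr1 and Fgfr2, the ligand genes Pdgfa, Pdgfc, Fgf2, Fgf7 and Fgf10, and the feedback inhibitor gene Spry2. Members were the ATAC-seq peaks that overlapped a gene body plus 25 kb on each side (GENCODE M21, mm10). Taken literally, this gave 491 of the 176680 peaks in the table, but 343 of them belonged to Fgfr2, for which 1 annotated transcript (ENSMUST00000124096.7) stretches the gene over 30 other protein-coding genes. The 314 peaks that only this stretch brought in were set aside from the annotation, a choice made after their values had been seen, and the 177 remaining peaks are described here as the locus peaks.

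ATAC-seq reads out open chromatin through the places where the transposase Tn5 can insert adapters. Primary wild-type C57BL/6N fibroblasts, taken from E13.5 embryos, received lentivirus in 8 ug/mL polybrene and 2 ug/mL doxycycline, and 50000 cells went into each transposition reaction. All 12 libraries carried rtTA, the doxycycline-dependent activator, in 4 groups of 3. The MEF group had rtTA alone and the Prox1_OE group had rtTA and FLAG-tagged mouse Prox1. Both 4in1 groups carried rtTA and 4in1 (LV.4TF), a vector used to convert fibroblasts toward hepatocytes, together with GFP (4in1_GFP_OE, the GFP arm) or FLAG-tagged mouse Prox1 (4in1_Prox1_OE, the Prox1 arm). The processed table covered only the 4in1 arms, and the other 2 groups were not analysed here. Per the study's methods the fibroblasts came from limbs of pooled embryos. The reporting summary describes experiments as independent biological replicates in general terms. For ATAC-seq, no step that removes cells without virus is described, so a value may average over transduced and other cells.

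PDGFs and FGFs are secreted ligands that pair or cluster receptor tyrosine kinases at the cell surface. The activated receptors signal through RAS and the MAP kinases and through PI3 kinase, and both families drive fibroblasts to divide and migrate. PDGFRalpha and PDGFRbeta are classic surface proteins of fibroblasts and other mesenchymal cells, FGF7 and FGF10 are made by mesenchyme and act mainly on epithelium through a splice form of FGFR2, and Sprouty proteins are induced by these pathways and dampen them. PROX1 is a homeodomain transcription factor of hepatocytes and lymphatic endothelium. The comparison addressed how its overexpression shifts accessibility at these genes while 4in1 is also present.

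The values were the authors' mean of each arm, a log2 of normalized reads in a peak, printed below as mean normalized reads. They carry no error, since values per library were not used here, and the depth of each library is unknown. Differences are the log2 mean in the Prox1 arm minus that in the GFP arm. No test could be run on them, so every count below is a description, in which a peak was counted as lower or higher when the difference reached 1 on the log2 scale, which is 2-fold.

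The sequences of 9 peaks, each 201 bases on the plus strand of GRCm38 (mm10), are shown because the results turn on them. The first 6 are the peaks with the lowest difference among the strong peaks of 6 genes, strong meaning a mean over both arms at or above the median of all peaks, the seventh is the strong Pdgfc peak with the highest difference, and the last 2 are promoter peaks that lie at opposite ends of the promoter values. Capitals mark every match to the 12 motifs searched, named after each position, and a sequence with no capitals held none.

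Pdgfra, lowest strong peak, chr5:75154400-75154600, RUNX: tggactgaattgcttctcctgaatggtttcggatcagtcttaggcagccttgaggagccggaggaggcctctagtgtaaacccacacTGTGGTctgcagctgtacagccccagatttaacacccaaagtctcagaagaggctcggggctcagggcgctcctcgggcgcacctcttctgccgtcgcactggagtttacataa

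Pdgfc, lowest strong peak, chr3:81164205-81164405, RUNX then AP-1: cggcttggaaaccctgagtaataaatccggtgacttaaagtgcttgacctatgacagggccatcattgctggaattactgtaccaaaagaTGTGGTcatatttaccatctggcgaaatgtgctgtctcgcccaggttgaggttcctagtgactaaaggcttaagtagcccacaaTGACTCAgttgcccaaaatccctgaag

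Fgfr2, lowest strong peak, chr7:130258165-130258365, GATA: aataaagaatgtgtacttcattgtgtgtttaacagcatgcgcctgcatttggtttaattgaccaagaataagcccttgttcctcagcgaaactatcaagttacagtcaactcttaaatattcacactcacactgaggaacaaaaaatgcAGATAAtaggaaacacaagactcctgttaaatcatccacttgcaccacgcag

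Fgf2, lowest strong peak, chr3:37357291-37357491, TEAD: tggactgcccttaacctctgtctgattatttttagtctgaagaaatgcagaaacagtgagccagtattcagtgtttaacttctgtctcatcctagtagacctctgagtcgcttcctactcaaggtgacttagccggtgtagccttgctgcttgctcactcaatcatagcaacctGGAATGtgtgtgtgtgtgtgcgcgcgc

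Fgf7, lowest strong peak, chr2:126065451-126065651, HNF4: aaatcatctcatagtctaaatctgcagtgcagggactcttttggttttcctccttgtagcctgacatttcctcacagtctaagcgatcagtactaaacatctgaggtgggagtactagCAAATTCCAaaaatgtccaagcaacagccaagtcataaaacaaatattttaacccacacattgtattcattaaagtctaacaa

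Fgf10, lowest strong peak, chr13:118732424-118732624, TEAD on the minus strand: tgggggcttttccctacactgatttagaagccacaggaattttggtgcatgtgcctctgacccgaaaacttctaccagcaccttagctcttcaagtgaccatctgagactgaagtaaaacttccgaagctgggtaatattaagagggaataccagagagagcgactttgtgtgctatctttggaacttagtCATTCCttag

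Pdgfc, highest strong peak, chr3:81197724-81197924, RUNX: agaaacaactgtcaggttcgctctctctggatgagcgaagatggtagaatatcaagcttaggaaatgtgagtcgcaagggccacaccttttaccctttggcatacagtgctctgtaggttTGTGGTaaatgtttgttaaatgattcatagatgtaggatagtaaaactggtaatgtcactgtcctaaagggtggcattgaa

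Pdgfa, promoter peak, chr5:138997558-138997758: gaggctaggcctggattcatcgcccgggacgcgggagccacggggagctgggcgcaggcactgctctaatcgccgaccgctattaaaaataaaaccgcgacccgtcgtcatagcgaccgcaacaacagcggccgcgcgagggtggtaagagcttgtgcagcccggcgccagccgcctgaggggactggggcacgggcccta

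Fgf7, promoter peak, chr2:126034484-126034684: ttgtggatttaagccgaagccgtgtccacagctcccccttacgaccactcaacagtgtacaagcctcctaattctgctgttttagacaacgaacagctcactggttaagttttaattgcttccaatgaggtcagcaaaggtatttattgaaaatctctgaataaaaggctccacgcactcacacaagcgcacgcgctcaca

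Most of the 177 locus peaks had lower means in the Prox1 arm. Differences lay below 0 at 145 peaks (81.9%, against 72.3% of all peaks), with a median of -0.63 against -0.42 over all peaks. This gap rests on setting the Fgfr2 stretch aside, since under the rule as written 354 of 491 peaks (72.1%) lay below 0, with a median of -0.44, and 22.8% were lower by at least 1. Among the 177 locus peaks, 46 (26.0%, Wilson 95% interval over peaks 20.1 to 32.9) were lower by at least 1 and 10 (5.65%, 3.10 to 10.1) were higher, beside 24.4% and 8.33% of all peaks. The share of lower peaks was thus near that of the whole table, and the intervals cover counting of peaks only. Summed over the locus peaks, mean normalized reads in the Prox1 arm were 0.68 of those in the GFP arm, against 0.75 over all peaks.

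Since the whole table was shifted by -0.42, each count depends on where 0 is placed. Measured from the median of all peaks, 12 locus peaks were lower by at least 1 and 20 were higher (6.78% and 11.3%), beside 8.64% and 13.4% of all peaks. The median of the locus peaks then stood at -0.21. Every gene had a median below 0, and all 10 medians were also below that of all peaks, from -0.011 relative to it at Pdgfra to -0.39 at Fgf7. With no flank, the medians of Pdgfra (-0.37) and Spry2 (-0.34) were instead above that of all peaks. All 10 quartile ranges overlapped, so the order of the genes was not separated from the spread of peaks within a gene.

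**Figure D1:**
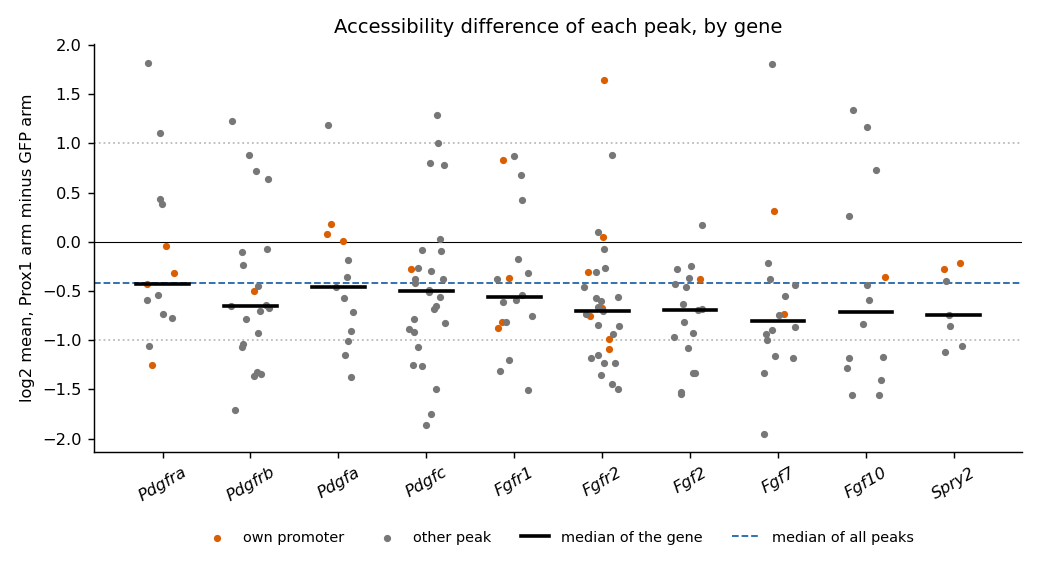
Difference of each of the 177 locus peaks (log2 mean, Prox1 arm minus GFP arm, y axis) by gene (x axis), with peaks within 1 kb of a start of that gene in orange, the other peaks in grey, a black bar at the gene's median, a dashed line at the median of all peaks (-0.42) and dotted lines at 1 and -1. All 10 medians lie below 0, and measured from the dashed line those of Pdgfra and Pdgfa lie near it.

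The 4 receptor genes held 81 peaks with a median difference of -0.61, of which 19 were lower by at least 1 and 4 higher. Fgfr2, which encodes the receptor for FGF7 and FGF10 on epithelium, had 29 peaks, the most of the 10 genes, with a median of -0.70. Of these, 8 (27.6%) were lower and 1 higher, a share near that of the whole table. All 8 lower peaks were among its 16 stronger peaks, those whose mean over both arms was at or above the median of all peaks (105 mean normalized reads), and all 16 of these lay below 0, with a median of -1.01. Over all peaks of that strength, 83.1% lay below 0 and 26.5% were lower by at least 1, with a median of -0.48.

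The lowest strong Fgfr2 peak was in an intron 8.00 kb from the 5' end (chr7:130258165-130258365), with 171 mean normalized reads in the GFP arm and 60.6 in the Prox1 arm, a difference of -1.50. A stronger peak beyond the 3' end (chr7:130143529-130143729) had 478 and 188 mean normalized reads, a difference of -1.35 that 3.12% of all peaks of like strength went below. It was named after its value had been seen, so a low rank followed from the choice. The promoter peak (chr7:130266205-130266405), the strongest of the locus, differed less, at 641 and 518 mean normalized reads (-0.31). The highest strong peak, 7.11 kb upstream (chr7:130273272-130273472), still lay at -0.27. The only Fgfr2 peak that was higher by at least 1 was weak (chr7:130229134-130229334), with 30.3 and 94.6 mean normalized reads (1.64), and it lay at an annotated start inside the gene.

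Fgfr1, the main FGF receptor gene of mesenchymal cells, had 18 peaks with a median of -0.57, 3 lower and 0 higher. Its promoter peak (chr8:25518679-25518879), at a start 5.12 kb inside the annotated gene, had 659 mean normalized reads in the GFP arm and 511 in the Prox1 arm (-0.37). The lowest strong peak (chr8:25585154-25585354), downstream of the gene and with an AP-1 match, had 179 and 77.9 mean normalized reads (-1.20). The strongest peak of the window was at the promoter of the neighbour Letm2 (chr8:25597464-25597664), with 750.4 and 665 mean normalized reads (-0.17), and was also the highest strong peak. All 8 strong peaks of Fgfr1 lay below 0, as did 83.1% of all strong peaks.

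Pdgfra, the receptor gene used as a marker of fibroblasts, stood closest to the table as a whole. Its 13 peaks had a median of -0.43, with 2 lower and 2 higher. The strongest peak, in the promoter region (chr5:75156305-75156505), was nearly level, at 460 mean normalized reads in the GFP arm and 446 in the Prox1 arm (-0.044), and held CTCF and HNF4 matches. Nearby, the lowest strong peak (chr5:75154400-75154600) had 265 and 111 mean normalized reads (-1.25). A weak peak downstream of the gene (chr5:75199861-75200061) had the highest difference of all 177, with 26.3 and 92.9 mean normalized reads (1.82).

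Pdgfrb, the receptor gene typical of pericytes and fibroblasts, had 21 peaks with a median of -0.65, 6 lower and 1 higher. Its promoter peak (chr18:61045041-61045241) had 565 mean normalized reads in the GFP arm and 401 in the Prox1 arm (-0.50), and 26.8% of all peaks of like strength were lower. The lowest peak of the window (chr18:61105461-61105661) had 274 and 84.1 mean normalized reads (-1.71). It lay within 1 kb of a start of Csf1r, the neighbouring gene for the macrophage colony-stimulating factor receptor, and is therefore shared between the 2 genes. Inside Pdgfrb itself, an intronic peak with an AP-1 match (chr18:61071915-61072115) had 278 and 108 mean normalized reads (-1.37). The highest strong peak (chr18:61087924-61088124), just past the 3' end, had 72.7 and 171 mean normalized reads (1.23), at percentile 96.8 of all peaks of like strength. That high rank followed from picking the highest peak. This peak and the lower peaks at chr18:61085734-61085934 and chr18:61106913-61107113 were also nearest to a start of Csf1r.

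**Figure D2:**
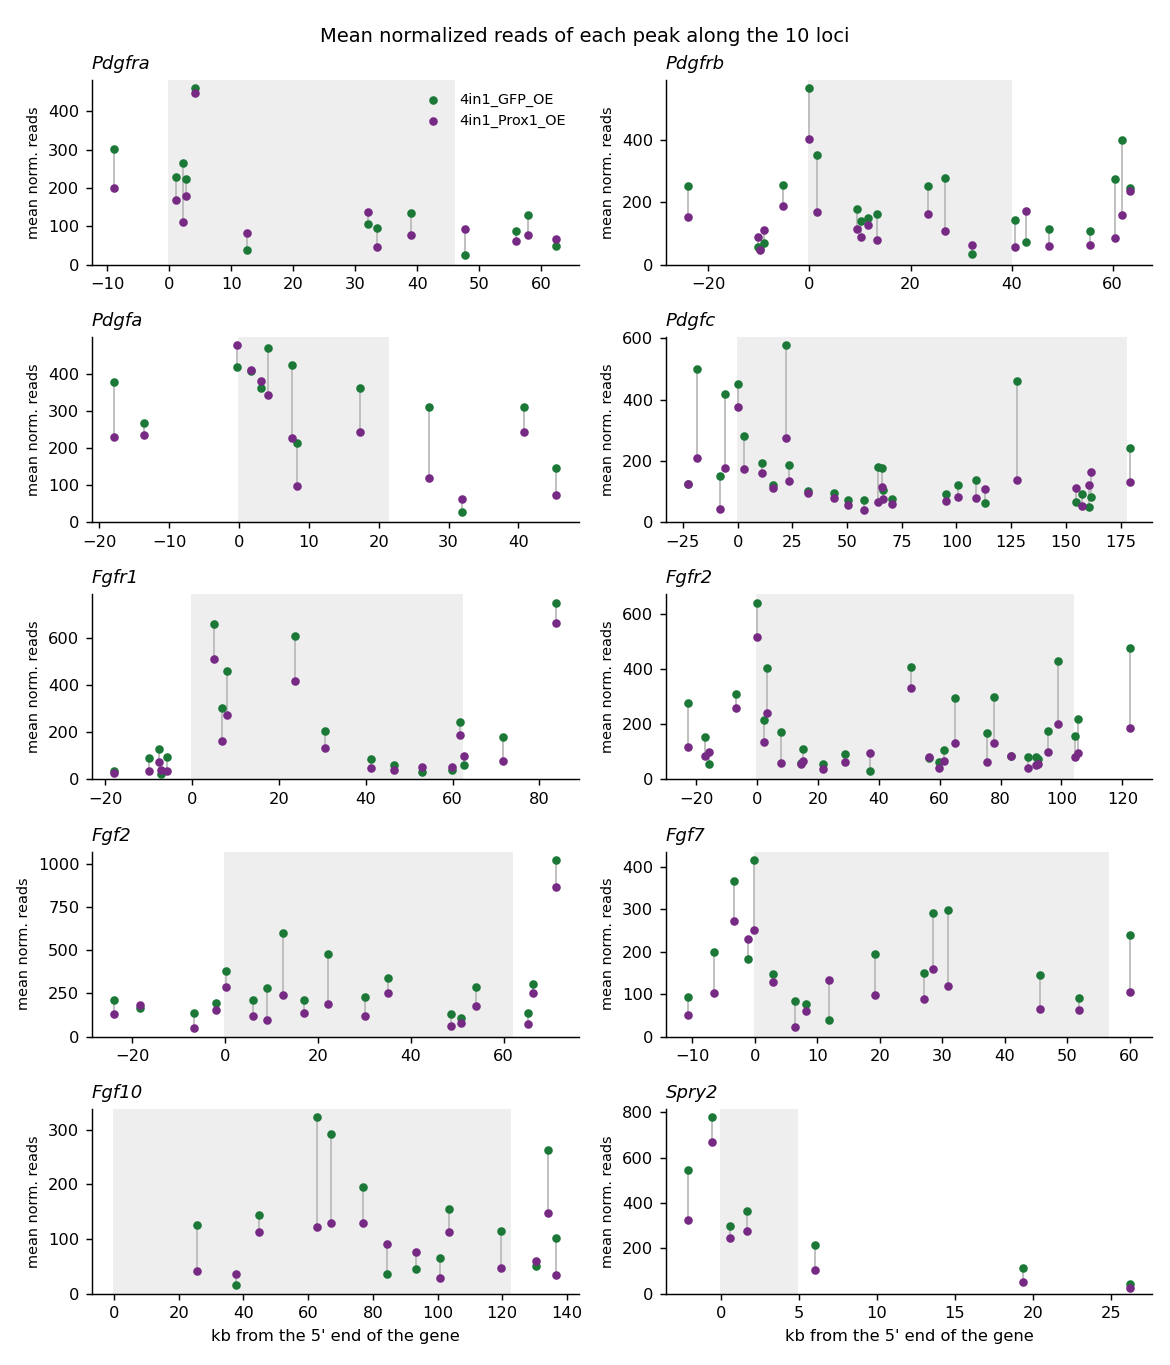
Mean normalized reads of each locus peak (y axis, linear) against its distance in kb from the 5' end of the gene (x axis), in the GFP arm (green) and the Prox1 arm (purple), joined by a grey line, with the gene body shaded. The promoter peak of Fgfr2 has 641 and 518 reads and its far downstream peak has 478 and 188, before any centring on the median of all peaks.

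The 5 ligand genes held 89 peaks with a median of -0.63, of which 25 were lower and 6 higher. Pdgfc, whose product acts mainly through PDGFRalpha, had 28 peaks with a median of -0.50, 6 lower and 2 higher. An intronic peak 128 kb into the gene (chr3:81164205-81164405, sequence above with RUNX and AP-1 matches) had 459 mean normalized reads in the GFP arm and 137 in the Prox1 arm. That difference of -1.75 was the lowest of any strong locus peak, and 1.80% of all peaks of like strength were lower. As the lowest of 108 strong locus peaks, it was bound to rank low.

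The strongest Pdgfc peak was also intronic (chr3:81058632-81058832, with an AP-1 match), at 578 and 275 mean normalized reads (-1.07). Strong upstream peaks at chr3:81017729-81017929 and chr3:81030419-81030619 had differences of -1.26 and -1.25. Between them lay the lowest Pdgfc peak, a weaker one (chr3:81028464-81028664), with 152 and 41.7 mean normalized reads (-1.86). By contrast the promoter peak (chr3:81036676-81036876) had 453 and 374 mean normalized reads (-0.27). The highest strong peak (chr3:81197724-81197924) lay 161 kb into the gene, with 80.4 and 162 mean normalized reads (1.01), and a weaker peak beside it (chr3:81197098-81197298) had 49.9 and 123 (1.29). Intronic peaks of Pdgfc thus lay in both directions.

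Pdgfa, the main PDGFRalpha ligand gene, was the exception among promoters. Its promoter peak (chr5:138997558-138997758) had 419 mean normalized reads in the GFP arm and 476 in the Prox1 arm, a difference of 0.18, and it stood at percentile 97.7 of all peaks of like strength. The other 2 peaks within 1 kb of a Pdgfa start were also just above 0, at 0.081 and 0.013. The rest of the window did not follow them. Over its 13 peaks the median was -0.46, with 3 lower and 1 higher, and a downstream peak (chr5:138970101-138970301) had 309 and 119 mean normalized reads (-1.37).

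Fgf2, which encodes a broadly acting FGF that lacks a signal peptide, had 18 peaks with a median of -0.69, of which 17 lay below 0, 5 were lower by at least 1 and 0 were higher. The lowest strong peak (chr3:37357291-37357491, TEAD match) had 283 mean normalized reads in the GFP arm and 98.0 in the Prox1 arm (-1.53). A pair of stronger intronic peaks had nearly equal values, 603 and 239 mean normalized reads at chr3:37360794-37360994 and 479 and 189 at chr3:37370476-37370676, and both differed by -1.34. The promoter peak (chr3:37348518-37348718) was lower by less, with 378 and 290.4 mean normalized reads (-0.38). The strongest peak of the window (chr3:37419631-37419831) belonged to the promoters of the neighbours Nudt6 and Spata5, at 1026 and 868 mean normalized reads (-0.24).

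Fgf7, encoding keratinocyte growth factor, had the lowest median, -0.81 over 16 peaks, with 5 lower and 1 higher. Its promoter peak (chr2:126034484-126034684) also had the lowest difference among the 10 promoter peaks, at 417 mean normalized reads in the GFP arm and 250.4 in the Prox1 arm (-0.74). Just upstream, 1.07 kb from the 5' end, another peak near a start of the gene (chr2:126033490-126033690) went the other way, with 184 and 229 mean normalized reads (0.32). The lowest strong peak (chr2:126065451-126065651) had 298 and 119 mean normalized reads (-1.33). A weak intronic peak (chr2:126040979-126041179) had the lowest difference of all 177, with 83 and 21.5 mean normalized reads (-1.95), and another (chr2:126046525-126046725) was among the highest, with 38.4 and 134 (1.81).

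Fgf10, a mesenchymal signal to epithelial buds in limb and lung, had the largest share of lower peaks, 6 of 14, and 2 higher, with a median of -0.71. Its strongest peak, in an intron (chr13:118732424-118732624, TEAD match), was also its lowest strong peak, at 323 mean normalized reads in the GFP arm and 122 in the Prox1 arm (-1.41). A second intronic peak nearby (chr13:118736699-118736899) had 293 and 129 mean normalized reads (-1.18). The promoter peak (chr13:118714564-118714764) was the weakest of the 10, with 144 and 112 mean normalized reads (-0.36). Both higher peaks were weak, the larger of them (chr13:118754093-118754293) with 35.7 and 90.4 mean normalized reads (1.34). Of the 6 lower peaks, 4 were also weak and 2 were strong. Measured from the median of all peaks, 2 Fgf10 peaks were lower by at least 1 and 3 were higher.

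Spry2, the feedback inhibitor gene, had 7 peaks, all below 0, with a median of -0.75, 2 lower and 0 higher, and the median was -0.34 with no flank. The promoter peak (chr14:105897284-105897484) was the strongest promoter peak of the 10 genes, at 778 mean normalized reads in the GFP arm and 669 in the Prox1 arm (-0.22). An upstream peak 2.11 kb from the start (chr14:105898825-105899025) had 546 and 325 mean normalized reads (-0.75). The lowest strong peak (chr14:105890676-105890876), downstream of the gene and with a TEAD match, had 217 and 104 mean normalized reads (-1.06). Measured from the median of all peaks, none of the 7 was lower by 1.

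As a group, promoter peaks differed less than the other peaks of the loci. Of the 10 promoter peaks, 9 lay below 0 and 0 reached a difference of 1 in either direction, and from the median of all peaks only those of Pdgfrb and Fgf7 lay on the lower side. The peak taken for each gene was its strongest. Below 0 lay 76.1% of all promoter peaks and 92.1% of the strongest 10% of all peaks. Of those strongest peaks, 9.86% were lower by at least 1 and 0.0453% higher, so the counts at the 10 genes lay near the shares of strong peaks. Among the 26 locus peaks near a start of their own gene, 2 (7.69%) were lower by at least 1 and 1 was higher, with a median of -0.34, beside 10.3% lower and a median of -0.22 over all 27533 promoter peaks in the table. Among the 145 locus peaks away from any coding gene's start, 43 (29.7%) were lower and 9 higher, with a median of -0.69, beside 27.0% lower and a median of -0.50 over all other peaks. The gap between promoter and other peaks was thus seen in the table as a whole. Counting every peak, promoters included, those outside the gene bodies but within 25 kb had a median of -0.72 (19 of 64 lower, 29.7%), and those from 25 to 100 kb had a median of -0.39 (41 of 141 lower, 29.1%).

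**Figure D3:**
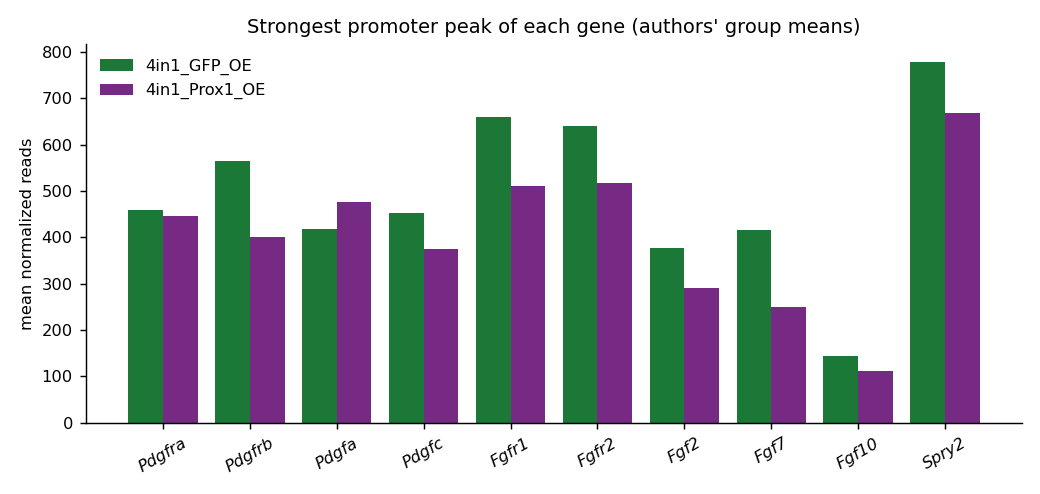
Mean normalized reads (y axis, from 0) of the promoter peak of each of the 10 genes (x axis), the strongest peak within 1 kb of a start of the gene, in the GFP arm (green) and the Prox1 arm (purple), without error bars because the values are the authors' group means. The Prox1 bar is the shorter in 9 genes and the taller at Pdgfa (476 against 419), and from the median of all peaks 8 of the 10 differences would be positive.

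Differences also followed the strength of a peak. The 108 strong locus peaks held 32 of the lower peaks (29.6%) and 2 of the higher ones (1.85%), with a median of -0.69, beside 26.5% and 1.77% and a median of -0.48 over all strong peaks. Of the 10 higher locus peaks, 8 were weak, and all 10 had at most 80.4 mean normalized reads in the GFP arm. Over all peaks, 89.4% of the higher ones were weak, and 14.9% of all weak peaks were higher, beside 11.6% of the weak locus peaks. The 69 weak locus peaks had a median of -0.51, beside -0.33 over all weak peaks. Ranked among all peaks of like strength, in 10 equal classes of mean concentration, the locus peaks had a median percentile of 42.5. There, 18 (10.2%) ranked in the lowest 10 percent and 12 (6.78%) in the highest.

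**Figure D4:**
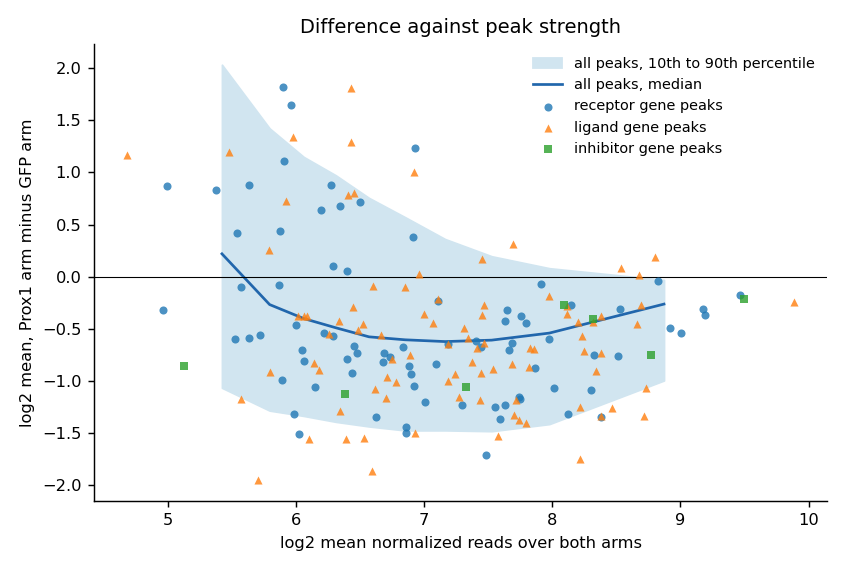
Difference (log2 mean, Prox1 arm minus GFP arm, y axis) against log2 mean normalized reads over both arms (x axis) for locus peaks of receptor genes (circles), ligand genes (triangles) and the inhibitor gene (squares), with the median (line) and 10th to 90th percentile (band) of all peaks in each of 10 classes of strength. Most locus peaks lie inside the band and 111 of 177 lie under the median of their class.

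Of the motifs searched on both strands, AP-1 (TGACTCA) was found in 40 locus peaks (22.6%, against 23.0% of all peaks), spread over 9 of the 10 genes. Locus peaks with AP-1 had a median difference of -0.93, with 18 of 40 lower and 1 higher, and those without it had -0.54, with 28 of 137 lower. The table as a whole showed a like gap, with medians of -0.84 and -0.31, and the shares of lower peaks with and without AP-1 were 45.0% and 20.4% at the loci beside 40.8% and 19.5% of all peaks. TEAD (GGAATG) was found in 33 locus peaks (18.6%, against 20.1%), of which 13 were lower and 0 higher, with medians of -0.89 with and -0.58 without it, against -0.64 and -0.37 over all peaks. The share of lower peaks among those with TEAD was 39.4%, beside 32.5% of all peaks with it. RUNX (TGTGGT) was found in 32 (18.1%, against 18.5%), with medians of -0.66 and -0.60.

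CTCF was found in 8 locus peaks in 8 genes, 4.52% against 4.15% of all peaks, and 0 of them were lower by at least 1, beside 13.3% of all peaks with the motif. HNF4 (CAAAGTCCA, 1 mismatch allowed), named for a liver factor, was found in 10 (5.65%, against 6.55%), with a median of -0.21 against -0.64 without it, while over all peaks the medians were -0.49 with and -0.41 without it. The GATA factor motif AGATAA and FOX (TGTTTAC) were each found in 8 (4.52%, against 6.72% and 2.65%), of which 3 and 0 were lower, beside 28.6% and 24.3% of all peaks with these motifs. The CRE (TGACGTCA) was found in 1 (0.56%, against 0.59%), NFI (1 mismatch) in 2 (1.13%, against 1.39%), the SRF CArG box in 3 (1.69%, against 1.13%) and the PROX1 motif of 11 bases (1 mismatch) in 1, an intronic Pdgfrb peak (0.56%, against 0.30%). ETS (CCGGAAGT) was found in 0 (against 0.72%). The letters of one motif may overlap those of another, and a match describes letters only.

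Other genes of both pathways were summarised in the same windows. Over 63 genes with 712 peaks, 129 (18.1%) were lower by at least 1 and 47 (6.60%) higher, beside 24.4% and 8.33% of all peaks, with a median of -0.28. Promoter peaks were present at 61 of these genes, of which 48 had a difference below 0, 1 was lower by at least 1 and 0 were higher. These windows thus had a higher median than the 177 locus peaks (-0.63) and the whole table (-0.42), and no test of that difference was possible.

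The other PDGF family genes (Pdgfb, Pdgfd and Pdgfrl) had a median of -0.68 over 51 peaks, with 18 (35.3%) lower and 3 (5.88%) higher. Pdgfd supplied 28 of these peaks and 14 of the lower ones, with a median of -0.99. The 3 genes were not alike, since Pdgfb had a median of 0.31 over 12 peaks and Pdgfrl -0.59 over 11. The promoter peak of Pdgfrl, a receptor-like gene, had 335 and 231 mean normalized reads (-0.53), and that of Pdgfd, a PDGFRbeta ligand gene, 539 and 412 (-0.39). At Pdgfb, the ligand gene of platelets and endothelium, the promoter peak was higher, at 255 and 325 (0.35). The 19 other FGF ligand genes had a median of -0.23 over 173 peaks, 18 lower (10.4%) and 16 higher (9.25%). Fgf18, a ligand gene of developing bone and cartilage, had the only promoter peak of the 61 that was lower by at least 1, with 420 and 179 mean normalized reads (-1.23). A promoter window of 2 kb replaced that value with that of a stronger peak at -0.34. Next lowest within this list of FGF ligand genes was Fgf23, an endocrine FGF gene of bone, with 73.2 and 52.9 (-0.47). The highest were Fgf4, with 119.8 and 198 (0.73), and Fgf22, with 226 and 372 (0.72).

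The 5 other FGF receptor and co-receptor genes were the only one of the 6 lists with a median above 0 (0.039 over 44 peaks, 5 or 11.4% lower and 7 or 15.9% higher). Among their promoter peaks, Fgfr3 had 286 and 446 mean normalized reads (0.64) and Fgfr4, the FGF receptor gene of hepatocytes, 178 and 218 (0.29). Fgfrl1, for a receptor without a kinase domain, had 754 and 691 (-0.13), and Kl, a co-receptor gene, 214 and 205 (-0.061). All 9 other feedback inhibitor genes had a promoter peak below 0, the lowest at Spred3, with 689 and 397 mean normalized reads (-0.80), and Il17rd, with 648 and 405 (-0.68). Closest to 0 were Spred1, with 613 and 537 (-0.19), and Dusp4, with 706 and 610.4 (-0.21). Over their 106 peaks, 22 (20.8%) were lower and 2 (1.89%) higher, with a median of -0.43.

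The 20 signal transducer genes had a median of -0.31 over 276 peaks (52 or 18.8% lower, 18 or 6.52% higher). Their promoter peaks ranged from -0.43 at the adaptor gene Shc1 (861 and 639 mean normalized reads) and -0.41 at Frs3 (746 and 560.5) up to -0.064 at Plcg1 (616 and 589) and 0.46 at Map2k1. The Map2k1 value came from a weak peak, with 38.5 and 53.0. The 7 nuclear target genes had a median of -0.25 over 62 peaks (14 or 22.6% lower, 1 or 1.61% higher). Their promoter peaks ranged from -0.45 at Elk1 (395 and 289) and -0.24 at Etv4 (712 and 603) to -0.065 at Egr1 (825 and 789) and 0.054 at Etv1 (506 and 525).

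**Figure D5:**
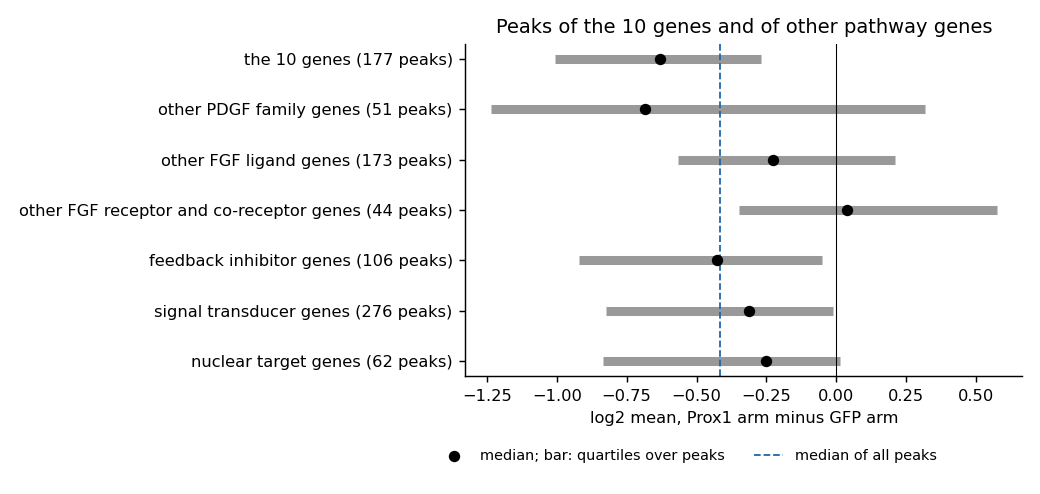
Median (point) and quartiles (bar) of the difference over peaks (log2 mean, Prox1 arm minus GFP arm, x axis) for the 10 genes and the 6 other lists, with the number of peaks in parentheses and a dashed line at the median of all peaks. The 10 genes (-0.63) and the other PDGF family genes (-0.68) lie left of the line, and the other FGF receptor genes (0.039) lie right of 0 with or without centring. Within the other PDGF family genes, Pdgfd has a median of -0.99 and Pdgfb of 0.31.

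The label of the cells was checked at marker genes by promoter peaks and their mean normalized reads in the GFP arm. The set of peaks is shared by both arms, so the presence of a peak is not particular to the GFP arm. All 9 fibroblast genes (Col1a1, Col1a2, Col3a1, Thy1, Vim, Twist1, Prrx1, Dcn and Lum) had a promoter peak, with 68.3 to 688 mean normalized reads, while 0 of the 4 hepatocyte genes (Alb, Apoa1, Ttr and Hnf4a) had one within 1 kb, although Apoa1 had one within 2 kb (438 and 284 mean normalized reads). Promoter peaks were also present at 3 of 4 endothelial, 3 of 4 leukocyte, 4 of 4 epithelial, 4 of 4 neural and 4 of 4 smooth muscle and pericyte genes, so promoter peaks alone did not separate these cell types. Summed promoter reads of the fibroblast list were 2816 in the GFP arm and 2042 in the Prox1 arm. The leukocyte sums were 869 and 573, with Ptprc without a peak, and the endothelial sums 898 and 412, with Emcn without a peak. Sums for the smooth muscle and pericyte list were 1176 and 772, those for the epithelial list 711 and 845 (517 and 456 without Epcam, which turns the direction), and those for the neural list 1006 and 1041. Their part in the results was not tested, and a smaller share of a cell type cannot be told apart from less open chromatin within it.

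Neighbouring genes limit the assignment of peaks. Of the 177 locus peaks, 153 were nearest to a start of the gene they were assigned to and 24 were nearer to another protein-coding gene, and 6 lay within 1 kb of such a gene's start. In the stretch set aside at Fgfr2, 66 of 314 peaks were lower and 33 higher, with a median of -0.32. With it included, 112 of 491 peaks were lower and 43 higher, with a median of -0.44.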

How the data were processed

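Per the labels and the study's methods, the authors used Trimmomatic 0.38 for trimming and Bowtie2 2.3.4.3 for alignment to mm10, cleaned the alignments and adjusted for Tn5 insertion bias with SAMtools 1.10 and Picard 2.18.16, and filtered with bedtools 2.27.1. The methods name MACS2 2.1.2 as peak caller and the reporting summary Genrich, so the caller is uncertain, as is whether peaks were called per library. DiffBind 3.4.11 counted reads in consensus peaks, of which 176672 are 201 bases wide. The methods refer to the vignette of that version and name no normalization setting themselves. Had it scaled by whole libraries, arms with unequal fractions of reads inside peaks would be shifted against each other at every peak.

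The deposited concentrations are log2 values of mean normalized reads per peak, over both arms or over the 3 libraries of 1 arm, as the authors made them. The table also holds the authors' fold change, p-value and FDR, and the 2 other deposited files are peak lists drawn from that comparison. None of these was used, since they are the study's own findings. Depth per library is unknown, replicates could not be compared, and no test over libraries was possible.

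Differences of the arm means were computed with Python 3.11.15, numpy 2.4.6, pandas 2.3.3 and scipy 1.17.1, and plotted with matplotlib 3.10.9. The counting step was checked on simulated data. Peaks were placed on GENCODE M21 genes, a promoter being 1 kb around any annotated start, and bases were read from GRCm38.p6. For each gene the named peaks were the strongest promoter peak and, among peaks at or above the median concentration, the strongest, lowest and highest. Further peaks were named after their values were seen. In the pathway lists, the 2 lowest and 2 highest promoter peaks were named. Members, lists and motifs were chosen with earlier results of these data known. Alternatives moved 0, the flank, the filter, the size counted and the genes included.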

Additional observations from a re-analysis of the deposited data

How the results depend on the processing

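Of the locus peaks, 46 were lower by at least 1, 10 were higher, the median difference was -0.63 and the share of lower peaks 26.0%. With 0 at the median of all peaks these became 12, 20, -0.21 and 6.78%, with 0 at the median of the strongest 10% of peaks 23, 16, -0.37 and 13.0%, with equal totals 12, 20, -0.22 and 6.78%, and with 0 at the median of promoter peaks 28, 16, -0.41 and 15.8%. Gene bodies with no flank gave 27 lower peaks and a flank of 100 kb gave 87 lower and 22 higher, since the windows hold fewer or more peaks. Counting from 1.5-fold gave 94 lower (53.1%) and 20 higher, and from 2 on the log2 scale 0 lower (0%) and 0 higher. Without the weakest 25% of peaks 4 were higher. Choices added after seeing the data were to keep the Fgfr2 stretch, with 112 lower, 43 higher and a median of -0.44, and to keep only peaks at or above the median concentration, with 2 higher. Leaving out each gene in turn, peaks at other genes' promoters or neighbours within 1 kb moved none of these 4 values past the tolerance (1.5 times for counts, 0.1 for medians). Both placements of 0 with 12 lower and 20 higher turned the balance of lower and higher peaks. With a promoter window of 2 kb the strongest promoter peaks of the 10 genes were unchanged, while those of Fgf18 (584 and 462 mean normalized reads, -0.34), Fgf1 (420 and 274, -0.61), Fgf11 (566 and 428, -0.40), Prrx1 (301 and 249, -0.27) and Apoa1 (438 and 284, a peak where 1 kb held none) were other peaks, as were those of Fgf21 (89.7 and 93.5, 0.061), Col1a2 (276 and 176, -0.65), Cspg4 (325 and 269.9, -0.27), Csf1r (398 and 159.8, -1.32) and Elavl3 (208 and 328, 0.66), so the sums over marker promoters hold for 1 kb. Gene medians stayed below 0 when centred (Pdgfra at -0.011), and with no flank those of Spry2 (-0.34), Fgf10 (-0.59) and Fgf2 (-0.82) moved by over 0.1. With no flank, the medians of Spry2 and Pdgfra (-0.37) lay above that of all peaks (-0.42).

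No paired analysis was possible because the columns used are means per arm and carry no replicate. For the same reason leaving out each replicate was not run. Without values per library, no difference here can be set against the spread between replicates, and weak peaks rest on the fewest reads.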

Other observations

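Beyond the 10 genes, a few loci of the same pathways stood out once their values had been seen. Over all peaks, 24.4% were lower by at least 1, 8.33% were higher and 72.3% lay below 0. At Pdgfd, which encodes a ligand of PDGFRbeta, 14 of 28 peaks were lower by at least 1 and 1 was higher, with a median of -0.99. At Dusp5, a nuclear phosphatase gene of the feedback inhibitor list, 8 of 12 peaks were lower and all 12 lay below 0, with a median of -1.15, while its promoter peak had 874 and 645 mean normalized reads (-0.44). At Fgfr3, all 8 peaks lay above 0, with 2 higher by at least 1 and a median of 0.44.

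Windows of the fibroblast marker genes held 92 peaks, of which 42 (45.7%) were lower and 1 (1.09%) higher, beside 24.4% and 8.33% of all peaks, with a median of -0.96. Their promoter peaks were lower by at least 1 only at Prrx1, a mesenchymal transcription factor gene, with 317 and 131 mean normalized reads (-1.27), where a window of 2 kb picked another peak at -0.27. Promoter peaks of the endothelial genes Pecam1 (304 and 101) and Cdh5 (232 and 85.2) had differences of -1.59 and -1.45. Among the epithelial genes, Epcam had 194 and 389 mean normalized reads (1.00) and Krt8 had 226 and 133 (-0.76), while Cdh1 and Esrp1 had differences of 0.13 and 0.17. The windows of the hepatocyte genes held 22 peaks, with 4 (18.2%) lower and 6 (27.3%) higher and a median of -0.043.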
